A study of Mus musculus with 11 samples.

Results

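Calcineurin, its NFAT substrates and its calcipressin inhibitors were followed in the aorta of old mice through 10 genes chosen by name. These were the calcineurin subunit genes Ppp3ca, Ppp3cb, Ppp3cc and Ppp3r1, the transcription factor genes Nfatc1, Nfatc2, Nfatc3 and Nfatc4, and the calcipressin genes Rcan1 and Rcan2. They held 13 of the 55681 probes of the array and 10 of its 36413 names. Male C57BL/6 mice aged 20 months had 1 g/L NaNO3 (sodium nitrate) in the drinking water over 8 weeks, and total RNA of the descending aorta, flushed and freed of the surrounding fat, was labelled with Cy3 and bound to an Agilent mouse array, a single array for each mouse. The controls were male C57BL/6 mice of the same age. Their labels name the agent as control and call the arrays a re-analysis of earlier samples, their treatment text repeats NaNO3, and the methods give sodium chloride as the control drink, so the labels do not show that both groups were kept together. Arrays of 5 old nitrate treated mice and 6 old controls were analysed, of the 6 mice per group that the study describes. The whole vessel wall was used, so that in this mixture of cells fewer cells of a type and less RNA per cell cannot be told apart.

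Calcineurin is a phosphatase that calcium and calmodulin switch on. It consists of a catalytic A subunit, encoded by Ppp3ca, Ppp3cb or Ppp3cc, and a calcium-binding regulatory B subunit, encoded in most tissues by Ppp3r1. Active calcineurin removes phosphate groups from the NFATc proteins, which then enter the nucleus and act on their target genes, often together with partner factors such as AP-1, until kinases return them to the cytoplasm. Calcipressins bind calcineurin and restrain it. In smooth muscle and endothelial cells this pathway is known from calcium-dependent gene control, and the immunosuppressants cyclosporin A and tacrolimus block it.

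The Rcan1 gene is known for a pair of start sites, of which the inner gives a short transcript that NFAT itself drives. Both starts are printed to show the difference in their surroundings, each as the 250 bases before the transcript start, from RefSeq in GRCm38.p6, 5' to 3' on the minus strand, with every match of GGAAA or of its reverse complement TTTCC, the core letters that NFAT proteins bind, in capitals. The inner start lay next to chr16:92400079-92400328 with 3 matches, and the outer start next to chr16:92466170-92466419 with 0 matches.
Rcan1, inner start: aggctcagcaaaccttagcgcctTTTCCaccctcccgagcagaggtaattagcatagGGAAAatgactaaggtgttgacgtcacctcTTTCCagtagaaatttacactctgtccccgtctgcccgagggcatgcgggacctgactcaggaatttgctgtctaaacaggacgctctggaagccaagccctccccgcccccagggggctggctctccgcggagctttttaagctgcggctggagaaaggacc
Rcan1, outer start: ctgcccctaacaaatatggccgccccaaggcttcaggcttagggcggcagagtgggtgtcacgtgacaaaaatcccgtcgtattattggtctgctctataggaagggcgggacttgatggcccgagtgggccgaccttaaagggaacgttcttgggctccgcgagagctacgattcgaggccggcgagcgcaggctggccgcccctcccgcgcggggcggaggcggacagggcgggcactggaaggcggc
Of 32851 windows of this length before RefSeq transcript starts, 55.6% held at least 1 match and 6.39% held at least 3. Of the 10 genes, 7 were in the promoter table, with 12 windows, of which 7 held a match. The windows of Nfatc4 and Ppp3cb, and the farther upstream of the windows of Nfatc2, also held 3 matches. A match describes letters only and is no binding site. The Rcan1 probe on the array lay at chr16:92392763-92392822 in mm9, the build of the files, and is described by transcript variant 2. The accessions given for it in the files include 2 of the 2 RefSeq transcripts of the gene, so the short and the long form were not measured apart.

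The markers of the vessel wall were present, with 8 of 8 smooth muscle genes and 8 of 8 endothelial genes detected. The methods describe removal of the surrounding fat, yet 10 of 10 adipocyte and 7 of 7 brown adipocyte markers were also detected. Detected means that, on 5 or more arrays of at least a single group, the spot of the probe was found and its signal was well above background. The brightness of the arrays was alike, with a 75th percentile of 213 to 282 on control arrays and 216 to 289 on nitrate arrays. Precision is limited by the number of arrays. The arrays lay on 3 slides that each held both groups, with nitrate treated mouse 3 alone of its group on slide 2. Column 3 of the slides held all 6 controls and none of the 5 nitrate arrays, so slide column and treatment cannot be told apart. By the criteria given below, 1 of 8 smooth muscle and 1 of 8 heart muscle markers detected were higher in nitrate treated mice, 6 of 10 adipocyte, 1 of 7 brown adipocyte, 1 of 5 T cell, 1 of 1 B cell and 1 of 4 nerve markers were lower, and 0 of 8 endothelial, 0 of 4 skeletal muscle and 0 of 6 macrophage markers met them. The summed adipocyte marker signal lay between 263000 and 345000 in nitrate treated mice and between 338200 and 476600 in controls. The summed signal of 8 heart muscle markers was 73740 in nitrate treated mouse 4 and 46820 in control 1, against 3040 to 11240 in the other mice.

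By the probes that carry their names, none of the genes of calcineurin, NFAT and calcipressin met the criteria of differential expression. Of the 13 probes found by name, 12 were detected and represented all 10 genes, and 0 of the 12 combined a P value under 0.05, unadjusted, by limma's moderated test with a fold change above 1.2, while 9% of all 23633 detected probes did. An unadjusted P value under 0.05 alone was reached by 1 of the 12, the probe of Nfatc4, against 14.4% of all detected probes. After Benjamini-Hochberg adjustment the number was 0, against 0.0127% of all. In 0 of the 12 were the 2 groups free of overlap, against 2.75% of all. The 12 differences fell evenly around 0, with 6 higher and 6 lower in nitrate treated mice and a median of 0.01 on the log2 scale, as was the median of all detected probes. These 12 probes were well above background on all 11 arrays. The spot-found flag let 5 of them through in 1 group only, 4 by the controls and 1 by the nitrate treated mice.

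**Figure D1:**
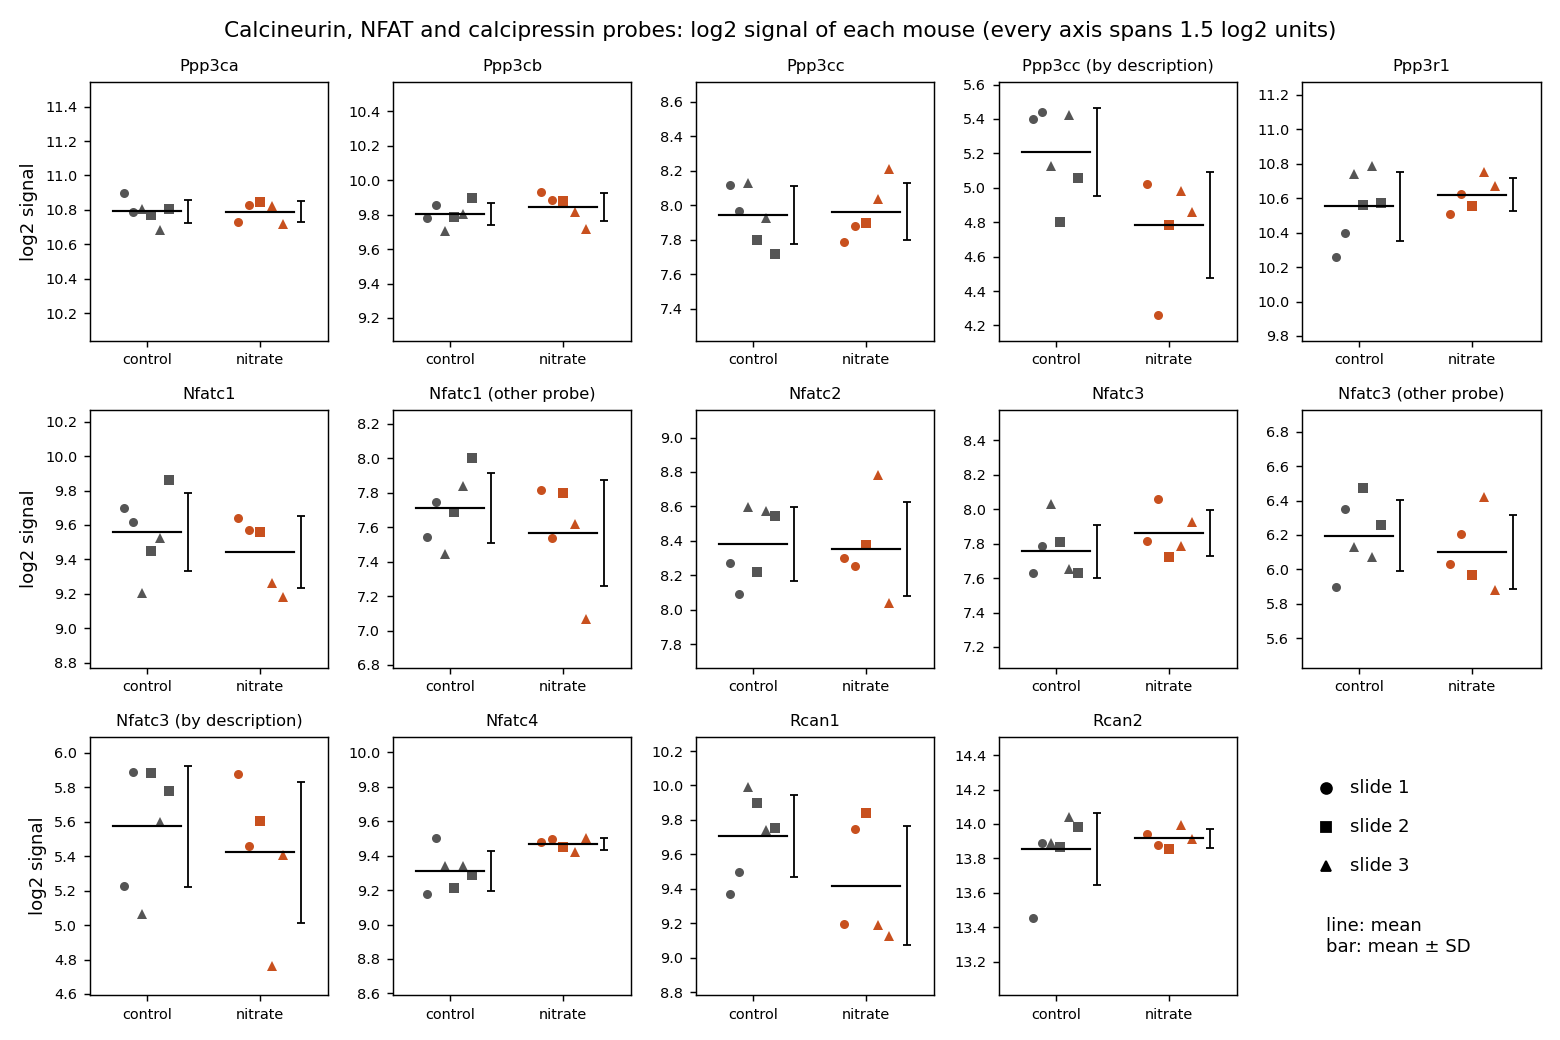
Log2 signal of each mouse for the 14 detected probes of the 10 genes, 12 by name and 2 by description, with controls in grey and nitrate treated mice in orange, marker shape for the slide, a line for the mean and a bar for the SD. The groups overlap in every panel, with 3 nitrate treated mice below all controls for Rcan1 and 2 for the Ppp3cc probe found by description.

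The catalytic subunit genes named on the array had near-equal signals in both groups. Ppp3ca (chr3:136598682-136598741) encodes the alpha isoform of the catalytic subunit. Its log2 signal was 10.73, 10.83, 10.85, 10.82 and 10.72 in the 5 nitrate treated mice, and in the 6 controls it ranged from 10.69 to 10.90, median 10.80. The nitrate values lay inside the range of the controls. The means were 10.79 ± 0.06 (SD, n = 5) and 10.79 ± 0.07 (SD, n = 6), a difference of -0.0024 on the log2 scale, and the 95% interval ran from -0.13 to 0.13 (limma, unadjusted P = 0.968, exact permutation P = 0.955, two-sided). Ppp3ca had the smallest difference and the smallest spread of the 12 detected probes by name, with a pooled SD of 0.06.

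Ppp3cb (chr14:21319265-21319324) encodes the beta isoform. Its log2 signal was 9.93, 9.88, 9.88, 9.82 and 9.71 in nitrate treated mice, against 9.71 to 9.90 with a median of 9.79 in controls. 1 nitrate treated mouse exceeded the controls, by a small margin. The difference was 0.04, with a 95% interval from -0.09 to 0.17 (limma, unadjusted P = 0.527).

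Ppp3cc encodes the gamma isoform, which is most abundant in testis. The probe that carries its name (chr14:70617749-70617808) read 7.79, 7.88, 7.90, 8.04 and 8.21 in nitrate treated mice, and from 7.72 to 8.13, median 7.95, in controls. Values of both groups were spread over the same range, apart from the highest nitrate treated mouse. The difference was 0.02, with a 95% interval from -0.20 to 0.24 (limma, unadjusted P = 0.852). For Ppp3ca, Ppp3cb and this Ppp3cc probe the whole 95% interval lay within a 1.2-fold change either way, which held for 3 of the 12 probes by name and for 26.7% of all detected probes. In folds, the intervals ran from 0.913 to 1.09 for Ppp3ca, from 0.937 to 1.13 for Ppp3cb and from 0.872 to 1.18 for Ppp3cc.

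Another probe on the array carries no gene symbol but is described as a Ppp3cc transcript, and it gave a different result. It lay 5850 bases from the named probe, at chr14:70623599-70623658 on the minus strand. Its sequence is printed, with its last triplet in capitals, because the call for Ppp3cc depends on it, next to a probe described as an Nfatc3 transcript (chr8:108643263-108643322, plus strand) of the same form.
Ppp3cc, probe by description: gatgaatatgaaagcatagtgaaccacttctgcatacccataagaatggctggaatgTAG
Nfatc3, probe by description: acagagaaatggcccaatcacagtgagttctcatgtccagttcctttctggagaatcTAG
Both read as 20 triplets without a stop until the last, here TAG. Of all 55681 probes, 4.95% read in this way up to a last triplet that is any of the stop triplets. The Ppp3cc probe by description had a log2 signal of 5.02, 4.26, 4.78, 4.98 and 4.86 in nitrate treated mice, and from 4.80 to 5.44, median 5.26, in controls. All nitrate treated mice lay below the median of the controls, 2 of them below the lowest control. The means were 4.78 ± 0.31 (SD, n = 5) and 5.21 ± 0.26 (SD, n = 6), so that the signal fell by 0.43 on the log2 scale or 1.34-fold (SE 0.16, 95% interval -0.77 to -0.09, limma, unadjusted P = 0.0179, adjusted P = 0.275, exact permutation P = 0.0303). It thus met the criteria that 9% of all detected probes met. It was well above background in 4 of 5 nitrate treated mice, all but mouse 2, and in 6 of 6 controls. Its spot met the detection rule in the controls only, so it entered the test through the group in which it was higher. The study chose Ppp3cc on these same arrays, so this value is not independent evidence of its direction. Across the 11 mice the 2 Ppp3cc probes had a Pearson r of 0.229 (permutation P = 0.505) and a Spearman rho of 0.255 (permutation P = 0.453). Without control 6 and nitrate treated mouse 5 r was 0.453, and after removal of the group means over all mice it was 0.352. The difference was -0.78, -0.15 and -0.35 on slides 1, 2 and 3. Without nitrate treated mouse 2 it was -0.30 (unadjusted P = 0.0444), and with normexp background correction it was -0.11 (unadjusted P = 0.0770).

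The regulatory subunit gene Ppp3r1 (chr11:17100263-17100322) had a log2 signal of 10.51, 10.62, 10.55, 10.75 and 10.67 in nitrate treated mice. In controls it ranged from 10.26 to 10.79, median 10.57. All nitrate values lay inside the wider range of the controls. The difference was 0.07, with a 95% interval from -0.15 to 0.28 (limma, unadjusted P = 0.499, adjusted P = 0.791).

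**Figure D2:**
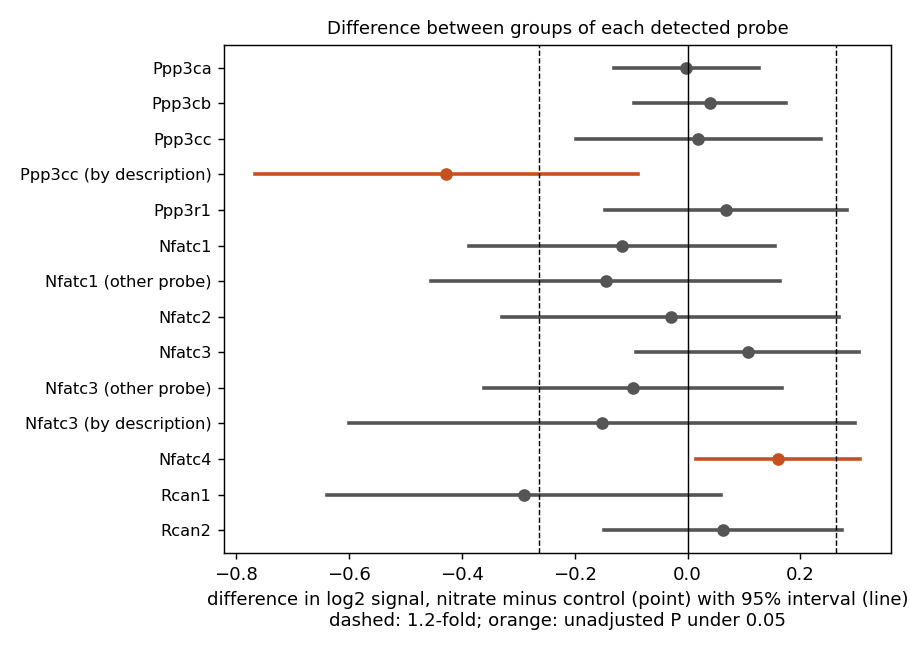
Difference in log2 signal between nitrate treated mice (n = 5) and controls (n = 6) for each of the 14 detected probes, with points for the difference, lines for the 95% interval, dashed lines at a 1.2-fold change and orange for an unadjusted P value under 0.05. The interval leaves out 0 only for Nfatc4 and for the Ppp3cc probe found by description.

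Among the NFAT genes, Nfatc4 differed most clearly from the spread between mice, although by little. Nfatc4 encodes NFATc4, also called NFAT3, which is expressed in muscle, heart and nerve cells. Its probe (chr14:56452542-56452601, transcript variant 1) read 9.48, 9.50, 9.45, 9.42 and 9.50 in nitrate treated mice, and from 9.18 to 9.50, median 9.31, in controls. The nitrate treated mice lay close together and all 5 were above the median of the controls, but none was above the highest control. The means were 9.47 ± 0.03 (SD, n = 5) and 9.31 ± 0.11 (SD, n = 6), a difference of 0.16 or 1.12-fold (SE 0.07, 95% interval 0.01 to 0.31, limma, unadjusted P = 0.0342, adjusted P = 0.319, exact permutation P = 0.0238). The fold change was below the limit of 1.2. The difference was 0.15, 0.20 and 0.12 on slides 1, 2 and 3. With slide as a block the P value was 0.0486, and it rose to between 0.0567 and 0.0749 when control 1, 4 or 6 or nitrate treated mouse 1, 2 or 5 was left out.

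Nfatc1, known for its role in heart valve and osteoclast development and for a short form under its own control, was read by probes of different transcript variants. The brighter probe (chr18:80803664-80803723) read 9.64, 9.57, 9.56, 9.26 and 9.18 in nitrate treated mice, and from 9.20 to 9.86, median 9.57, in controls. The nitrate values covered the lower part of the range of the controls. The difference was -0.12 (SE 0.12, 95% interval -0.39 to 0.16, limma, unadjusted P = 0.370). The other probe gave 7.82, 7.54, 7.80, 7.62 and 7.06 against 7.45 to 8.00 with a median of 7.72, a difference of -0.14 (SE 0.14, unadjusted P = 0.327). Nitrate treated mouse 5 was the lowest on both probes, and without it the differences were -0.05 and -0.0193. That of the brighter probe was also -0.07 without nitrate treated mouse 4, -0.06 without control 6 and -0.19 without control 3, and that of the other probe -0.09 without control 6. The 2 probes moved together over the 11 mice, with a Pearson r of 0.741 (permutation P = 0.00764, adjusted over the 5 probe pairs of the set 0.0382) and a Spearman rho of 0.591 (permutation P = 0.0613, adjusted 0.306). Without control 3 and nitrate treated mouse 5 r was 0.473, so that the relation rested in part on those mice, and after removal of the group means it was 0.717.

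Nfatc2, the NFAT factor best known from T cells, had 1 detected probe of 2. This probe (chr2:168301974-168302033) read 8.30, 8.26, 8.38, 8.78 and 8.04 in nitrate treated mice, and from 8.09 to 8.60, median 8.41, in controls. Nitrate treated mice were both the highest and the lowest of the 11. The difference was -0.03, with a 95% interval from -0.33 to 0.27 (limma, unadjusted P = 0.832). The other probe, 59783 bases away at chr2:168361757-168361816 and assigned to another transcript variant, was well above background in 0 of 5 nitrate treated mice and 1 of 6 controls, and no difference is given for it.

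Nfatc3, which is present in vascular smooth muscle, was read by 2 probes that carry its name and by the probe described above, and their differences lay on both sides of 0. The brightest (chr8:108654316-108654375) read 7.82, 8.06, 7.72, 7.79 and 7.93 in nitrate treated mice, and from 7.63 to 8.03, median 7.72, in controls. The spot of this probe met the detection rule in nitrate treated mice only. The difference was 0.11, with a 95% interval from -0.09 to 0.30 (limma, unadjusted P = 0.262). The other named probe (chr8:108615965-108616024) differed by -0.10 (SE 0.12, unadjusted P = 0.444) and the probe by description by -0.15 (SE 0.21, unadjusted P = 0.474). Each of these differences was within the spread between mice. The probes of Nfatc3 did not follow each other over the 11 mice, with Pearson r of 0.063, -0.242 and 0.081 for the 3 pairs (permutation P = 0.850, 0.472 and 0.814).

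Of the calcipressins, Rcan1 had the largest difference of the 12 detected probes by name and also the widest spread among them, with a pooled SD of 0.29. The product of Rcan1 binds calcineurin and the gene responds to calcium and to oxidative stress. Its log2 signal was 9.19, 9.75, 9.84, 9.19 and 9.12 in the 5 nitrate treated mice. In controls 1 to 6 it was 9.37, 9.50, 9.99, 9.90, 9.74 and 9.75. The nitrate treated mice formed a low set of 3, below every control, and a pair that lay among the controls. The means were 9.42 ± 0.34 (SD, n = 5) and 9.71 ± 0.24 (SD, n = 6), a difference of -0.29 or 1.22-fold (SE 0.16, 95% interval -0.64 to 0.06), which was not larger than the spread between mice (limma, unadjusted P = 0.0960, adjusted P = 0.432, exact permutation P = 0.136). Between the group means of a slide, the difference was 0.04 on slide 1 and 0.01 on slide 2, against -0.71 on slide 3. Slide 3 held nitrate treated mice 4 and 5 and controls 3 and 5. Slide 1 held mice 1 and 2 of each group, and there nitrate treated mouse 1 lay below the controls and mouse 2 above them. Slide 2 held nitrate treated mouse 3 and controls 4 and 6. The slide values thus rest on few mice. With slide as a block the difference was -0.25 (unadjusted P = 0.135). Leaving out control 1 gave -0.36 (unadjusted P = 0.0468), nitrate treated mouse 2 -0.37 (unadjusted P = 0.0441) and nitrate treated mouse 3 -0.39 (unadjusted P = 0.0259), each of which met the criteria. The summed heart and adipocyte marker signals given above also differed among these mice, and their part in the Rcan1 values was not tested.

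**Figure D3:**
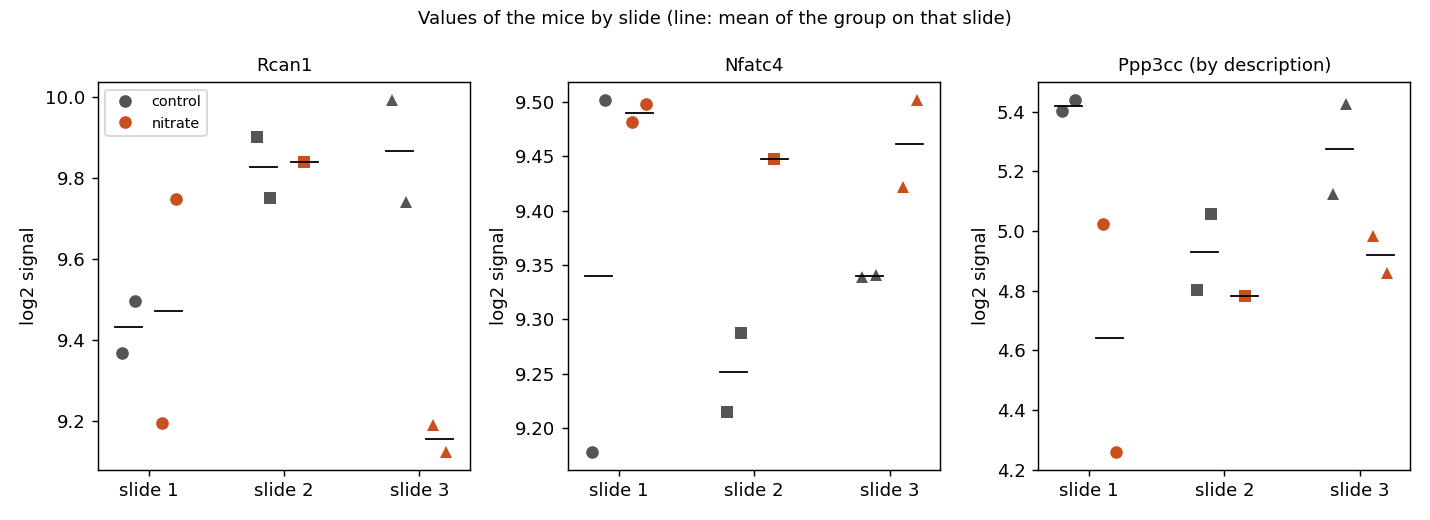
Log2 signal of each mouse by slide for Rcan1, Nfatc4 and the Ppp3cc probe found by description, with controls in grey, nitrate treated mice in orange and a line for the group mean on that slide (y axes differ between panels). For Rcan1 the groups part on slide 3 only, by -0.71, while Nfatc4 is higher with nitrate on each slide, by 0.12 to 0.20.

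Rcan2, the second calcipressin gene, was close to equal in both groups. Its probe (chr17:44176406-44176465, transcript variant 1) read 13.94, 13.88, 13.85, 13.99 and 13.91 in nitrate treated mice, and from 13.45 to 14.04, median 13.89, in controls. Only control 1 lay apart, at the lowest value. The difference was 0.06, with a 95% interval from -0.15 to 0.27 (limma, unadjusted P = 0.529, exact permutation P = 0.723), and -0.02 without control 1.

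The genes whose signals followed Rcan1 most closely over the 11 mice, among 12213 symbols compared by their brightest detected probe, were Hspa1a, Litaf and Gm3418. Hspa1a encodes an inducible heat shock protein and is nearly identical to its neighbour Hspa1b, so that its probe may read both. Its Pearson r with Rcan1 was 0.911 and its Spearman rho 0.864, with 0.898 after removal of the group means. Litaf, which encodes a protein of the late endosome, had a Pearson r of 0.895 (rho 0.836), and Gm3418, a predicted gene, 0.893 (rho 0.927). These genes were picked for their high r, so the values are a description without a test. Hspa1a differed by -0.50 between the groups (limma, unadjusted P = 0.188), Litaf by -0.15 (unadjusted P = 0.104) and Gm3418 by -0.30 (unadjusted P = 0.0618). Hspa1a met both criteria without control 1 (-0.75, unadjusted P = 0.0248) or nitrate treated mouse 3 (-0.75, unadjusted P = 0.0426), and Gm3418 without control 1 or 2 or nitrate treated mouse 2 or 3 (-0.34 to -0.37), while it was at -0.18 without nitrate treated mouse 5. Hspa1a was low in nitrate treated mice 1, 4 and 5, as was Rcan1, and also in control 1.

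**Figure D4:**
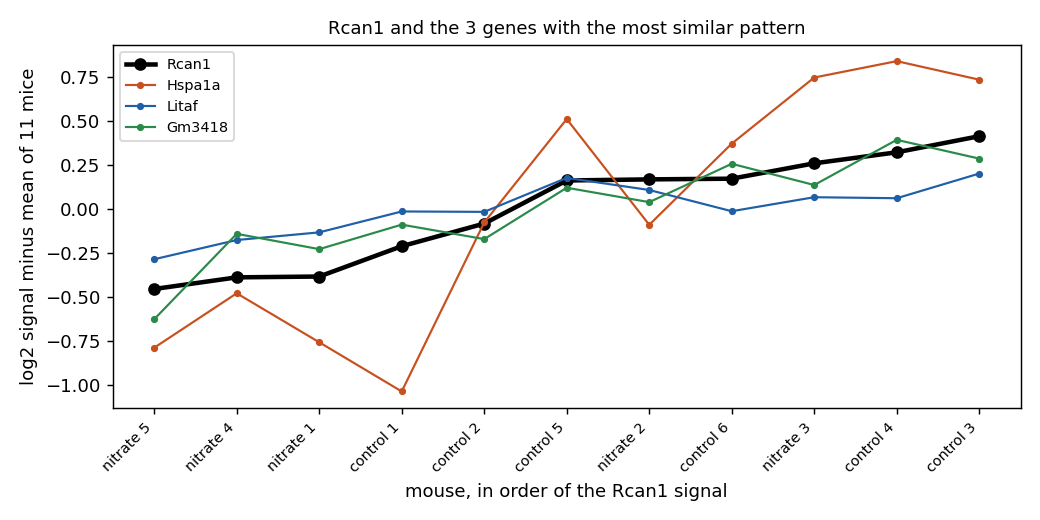
Log2 signal minus the mean of the 11 mice for Rcan1 and the 3 genes with the highest Pearson r to it (0.893 to 0.911), with mice on the x axis in order of their Rcan1 signal. All 4 lines are lowest or near lowest in nitrate treated mice 1, 4 and 5 and high in control 3, and Hspa1a has its lowest value in control 1.

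Around the 10 genes, 73 further genes of the pathway were taken from lists of their regulators, partners and targets. Of these 71 were on the array and 53 were detected. By their brightest detected probe, 1 was higher by both criteria, 1.89% of those detected, and 0 were lower, against 4.16% higher and 4.85% lower among all detected probes. An unadjusted P value under 0.05 was reached by 3, Vcam1, Calm2 and Mapk8, and the median difference was 0.05 with 32 of 53 above 0.

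Upstream of calcineurin, 8 of 8 genes of calcium entry and calmodulin were detected and 0 met both criteria by their brightest probe. Calm2 encodes calmodulin, as does Calm3. Its brightest probe read 14.50, 14.52, 14.36, 14.25 and 14.22 in nitrate treated mice, and from 13.96 to 14.28, median 14.19, in controls. The first 3 mice exceeded every control and the other 2 did not. The difference was 0.21 or 1.16-fold (SE 0.08, limma, unadjusted P = 0.0224, exact permutation P = 0.0173), and it was 0.42, 0.18 and 0.03 on slides 1, 2 and 3. Without nitrate treated mouse 1 or 2 the P value was 0.0598 or 0.0639. Another probe of Calm2 differed by 0.28 (limma, unadjusted P = 0.00506) and so met both criteria. Calm3, by contrast, had a difference of -0.16 (unadjusted P = 0.0736) on its brightest probe and 0.08 (unadjusted P = 0.431) on another. The store-operated channel gene Orai1 differed by -0.11 (limma, unadjusted P = 0.0865, exact permutation P = 0.026), and another of its probes by -0.03 (unadjusted P = 0.805). Orai3 differed by 0.14 (limma, unadjusted P = 0.0788, exact permutation P = 0.0606). Other Orai3 probes differed by 0.08 (unadjusted P = 0.269) and 0.51 (unadjusted P = 0.0837), so the size depended on the probe.

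Of the 11 calcineurin inhibitors and anchors, 9 were detected and 0 met the criteria, with a median difference of 0.12. The 4 smallest P values of this list belonged to Cabin1, a calcineurin-binding inhibitor, at 0.18 (unadjusted P = 0.0709), to Myoz1, which anchors calcineurin at the Z disc of striated muscle, at 0.35 (unadjusted P = 0.0911), and to the immunophilin genes Fkbp1a at 0.13 (unadjusted P = 0.161) and Ppia at 0.09 (unadjusted P = 0.180), whose products carry tacrolimus and cyclosporin A to calcineurin. Myoz1 was at 0.43 (unadjusted P = 0.0392) without control 5, where it met both criteria, but at 0.18 (unadjusted P = 0.120) without control 1 and 0.12 (unadjusted P = 0.158) with normexp background correction. Another Fkbp1a probe differed by 0.04 (unadjusted P = 0.525). The third calcipressin gene, Rcan3, differed by 0.08 (unadjusted P = 0.379).

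Of the 10 NFAT kinases, 9 were detected and 0 met the criteria, with 5 of 9 above 0. Mapk8, which encodes the kinase JNK1, had a difference of 0.23 or 1.17-fold (SE 0.10, limma, unadjusted P = 0.0399, exact permutation P = 0.0584). Its P value was under 0.05 in 8 of 21 alternatives, and with normexp background correction the difference was 0.05 (unadjusted P = 0.314). Leaving out control 1, 2, 3, 4 or 6 or nitrate treated mouse 2, 3 or 4 also took it above 0.05. Csnk1a1, which encodes casein kinase 1 alpha, differed by 0.12 (limma, unadjusted P = 0.0552, exact permutation P = 0.013), and another of its probes by 0.08 (unadjusted P = 0.572). Dyrk1b differed by -0.15 (unadjusted P = 0.210) and Dyrk1a by -0.09 (unadjusted P = 0.290). Another detected probe of each Dyrk gene lay on the other side of 0, at 0.05 for Dyrk1b (unadjusted P = 0.438) and 0.04 for Dyrk1a (unadjusted P = 0.604). Of the 15 NFAT partners, 12 were detected and 0 met the criteria, with a median of -0.07. Their 4 smallest P values were those of Homer3 at 0.12 (unadjusted P = 0.206), the AP-1 genes Fosb at -0.44 (unadjusted P = 0.229) and Jund at -0.16 (unadjusted P = 0.252), and Jun at 0.23 (unadjusted P = 0.419). The AP-1 values moved with single mice. Without nitrate treated mouse 3, Fosb was at -0.75 (unadjusted P = 0.0219) and met both criteria, and without nitrate treated mouse 1 or 5 it was at -0.29 or -0.27. Jund was at -0.26 (unadjusted P = 0.0204) without control 1 and at -0.07 without nitrate treated mouse 5. Jun was at 0.09 without nitrate treated mouse 2, 0.05 without mouse 3 and 0.40 without mouse 4, and at 0.14 without control 5 and 0.37 without control 2.

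Among 16 genes known as NFAT targets in vascular cells, 13 were detected and 1 met the criteria, 7.69% against 9% of all detected probes. This was Vcam1, which encodes the adhesion molecule that holds leukocytes to activated endothelium and which other factors, NF-kappaB among them, also control. Its log2 signal was 10.89, 11.21, 10.64, 10.60 and 10.65 in nitrate treated mice, and from 10.12 to 10.52, median 10.43, in controls. Every nitrate treated mouse lay above every control, and 2.75% of all detected probes had groups without overlap. The means were 10.80 ± 0.26 (SD, n = 5) and 10.38 ± 0.15 (SD, n = 6), and Vcam1 rose by 0.42 or 1.33-fold (SE 0.12, 95% interval 0.16 to 0.67, limma, unadjusted P = 0.00414, adjusted P = 0.192), with an exact permutation P of 0.00216, the smallest that 462 divisions of the mice allow. Another Vcam1 probe differed by 0.52 (limma, unadjusted P = 0.00509). The difference was 0.79, 0.16 and 0.22 on slides 1, 2 and 3. Adipocyte markers moved in the same comparison, as given above, and their part in the result was not tested.

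Of the other vascular targets, Ptgs2, which encodes cyclooxygenase-2, differed by 0.69 (95% interval -0.19 to 1.56, unadjusted P = 0.112) and Kcnmb1, the smooth muscle subunit of the large-conductance potassium channel, by 0.19 (unadjusted P = 0.120). The difference of Ptgs2 was 1.26, 1.41 and -0.23 on slides 1, 2 and 3, so that its direction turned on slide 3, and it was 0.44 (unadjusted P = 0.242) without control 1. Of the 10 targets known from T cells, such as Il2 and Ifng, only Egr2 was detected, at a difference of 0.14 (unadjusted P = 0.707). 5 of 8 T cell markers were detected on the same arrays.

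**Figure D5:**
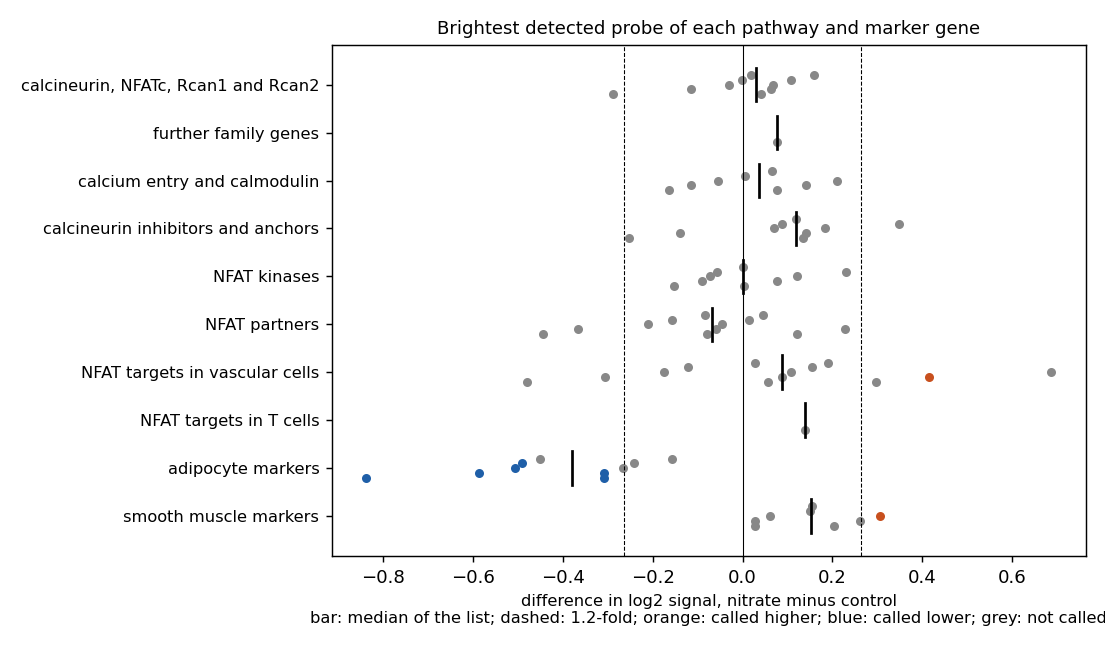
Difference in log2 signal between nitrate treated mice and controls for the brightest detected probe of each gene, by list, with a bar for the median of the list, dashed lines at a 1.2-fold change and colour for genes that met both criteria. Vcam1 is the only coloured gene of the pathway, at 0.42, while 6 of 10 adipocyte markers are blue.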

How the data were processed

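RNA was measured on 11 single-color Agilent arrays. The authors deposited spot intensities made by Feature Extraction 10.7.1.1, with the local background subtracted, and a table of log2 values made with GeneSpring GX 12.5 by quantile normalization and centring on the median of all arrays. Every column was matched to a sample.

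Here the log2 of the deposited processed signal, with a floor of 1, was averaged over the spots of a probe without control spots and outlier flags, and quantile normalization was run on the 11 arrays (R 4.3.3, limma 3.58.1). Detection asked for a found spot, well above background, on 5 or more arrays of a group. All arrays entered lmFit and eBayes. The criteria of the study were an unadjusted P value below 0.05 with a fold change over 1.2, and Benjamini-Hochberg adjustment covered all detected probes. The fit was tested on simulated data. Exact permutation tests of single values, two-sided, ran over 462 divisions of the mice. P values of probe correlations come from permutations. Levels of different probes were not compared.

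The 10 genes and the lists were chosen with earlier results of these data known. Named were all their probes, up to 4 genes per pathway list with the smallest P values, and the 3 genes most like Rcan1, of which some items are not reported here. Probes of Ppp3cc and Nfatc3 without a symbol were matched by their description. The other probes of Calm2, Calm3, Csnk1a1, Dyrk1a, Dyrk1b, Fkbp1a, Orai1, Orai3 and Vcam1 were added after their values were seen. So were the markers whose sums are given. Names and mm9 positions are those of the files, exon placement was not analysed here, and promoter windows are RefSeq of GRCm38.p6. Alternatives covered normalization, background correction, the deposited table, an offset of 16, detection, flagged spots, the prior variance, slide or replicate number as a block, the choice of probe and each array left out. Detection without the spot-found flag and the probes matched by description were added after seeing the data.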

Additional observations from a re-analysis of the deposited data

Results flagged for a closer look

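In controls, the Rcan2 signal of control 1 stood apart from the others. The gap to the next lowest control was 0.697 of the whole range of the 6 controls, above the limit for a group of this size. It was the single value set apart among 28 groups of mice examined, in which chance alone gives about 1.4.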

How the results depend on the processing

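The count of differentially expressed probes, 2128 of 23633, was 1218 with normexp background correction and 3224 without a detection filter, where 55681 probes were tested. With each array left out it lay between 1596 (without control 1) and 2424. Of the called probes 46.1% were higher, against 35.8% with normexp. The number of probes of the 10 genes that met both criteria, 0, lay between 0 and 1 with each array left out, where Rcan1 met them without control 1, nitrate treated mouse 2 or nitrate treated mouse 3, and was 1 with the 2 probes matched by description. The number with an unadjusted P value under 0.05, 1, was 0 with normexp, 2 with the probes matched by description, and between 0 and 2 with each array left out (0 without control 4, control 6, nitrate treated mouse 1 or 5). The number of pathway genes called, 1, was 2 with the deposited log2 table or a trended and robust prior variance and 3 with slide as a block, and lay between 1 and 4 with each array left out, being 4 without control 5 and 2 without control 1, control 6 or nitrate treated mouse 1, 3 or 5.

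Equal replicate numbers did not pair the mice, with correlations of same-numbered deviations of 0.01, 0.12, -0.14, -0.13 and 0.18, and only number 2 was the best match in both directions. With the replicate number as a block, without control 6, 2433 probes were called, 0 probes of the 10 genes met both criteria, 0 had a P value under 0.05 and 5 pathway genes were called. Under the block Nfatc2 differed by 0.0025 and Ppp3cc by -0.026.

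Differences close to 0 changed sign. Ppp3ca was at 0.0037 with scaling to the 75th percentile, 0.0007 with normexp and 0.0005 with slide as a block, and between -0.0238 and 0.0186 with arrays left out. Ppp3cc was at -0.0079 with slide as a block and between -0.0429 and 0.0633 with arrays left out, and at -0.43 on the probe matched by description. With arrays left out, Nfatc2 lay between -0.14 and 0.048, the Nfatc3 probe matched by description between -0.27 and 0.0131, Rcan2 between -0.0175 and 0.10 and Egr2 between -0.14 and 0.33. On the probe used for each, others moved by more than 1.5 times without a change of sign or of call, namely Ppp3r1 (0.0099 to 0.11), Ppp3cb (0.0187 to 0.07), Rcan3 (0.0229 to 0.13), Nfatc3 (0.06 to 0.16), its other probe (-0.18 to -0.04), Dyrk1a (-0.13 to -0.05), Dyrk1b (-0.22 to -0.08), Fkbp1a (0.08 to 0.18), Homer3 (0.07 to 0.16), Kcnmb1 (0.12 to 0.25) and Litaf (-0.20 to -0.10). Nfatc3 was at -0.10 on its other probe and -0.15 on that matched by description. The cause of these changes was not tested. Nfatc4 kept a P value under 0.05 in 14 of 22 alternatives (0.00834 to 0.0906), the Ppp3cc probe by description in 21 of 22 and Vcam1 in 22 of 22.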
